A study of Mus musculus with 12 samples.

Results

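The genes described here are 4 beta-defensins (Defb1, Defb4, Defb6 and Defb14) and the 4 members of the interleukin-36 (IL-36) group, which the array names Il1f5, Il1f6, Il1f8 and Il1f9 (now Il36rn, Il36a, Il36b and Il36g). They were chosen by name, with their signal by genotype and experiment already known, and were found as every probe whose transcript accession belongs to one of them. This gave 8 probes of 55681 on the array, 1 for each gene, and all 8 genes were among the 16181 genes kept. Because the choice used these values, the levels and differences of the 8 genes are given as a description with standard errors and without tests.

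The study measured gene expression in plucked mouse skin to ask what the transcription factor Sox4 contributes to hair regrowth and to the activation of hair follicle stem cells. Total RNA of 12 male mice of mixed C57Bl6/129Sv strain was hybridised to 12 one-colour arrays, 1 mouse per array, with all skin taken at day 12 after plucking. Wild-type mice (WT) and mice that had lost Sox4 conditionally in the skin (cKO) were sampled in experiments named Exp 1 and Exp 2, with 3 mice of each genotype in each. Exp 1 held WT 1, 2 and 3 (69 to 72 weeks old) and cKO 2, 5 and 6 (68 to 72 weeks old). Exp 2 held WT 4, 5 and 6 (18 to 20 weeks old) and cKO 1, 3 and 4 (16 to 18 weeks old). Age and experiment therefore cannot be told apart. Neither the Cre driver of the knockout nor skin without plucking could be described from these sources.

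Beta-defensins are small, positively charged peptides that epithelial cells release and that damage microbial membranes; some also attract immune cells. In keratinocytes Defb1 is known as a largely constitutive gene, while Defb4 and Defb14 are known to be induced by microbes and by inflammatory cytokines. Defb6 was first described in skeletal muscle. The IL-36 cytokines belong to the interleukin-1 family and are made mainly by epithelial cells. Il1f6, Il1f8 and Il1f9 encode the agonists IL-36 alpha, beta and gamma, which signal through the receptor Il1rl2 and its partner chain Il1rap to NF-kB. Il1f5 encodes the receptor antagonist, which occupies Il1rl2 without recruiting the partner chain.

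The genes lie in clusters. In the RefSeq gene order, Defb14, Defb4 and Defb6 are consecutive protein-coding genes on chromosome 8, and 44 protein-coding genes separate Defb6 from Defb1. On chromosome 2 the order is Il1f8, Il1f9, Il1f6, Il1f5, then Il1f10, Il1rn and Psd4. RefSeq promoter sequences (GRCm38.p6) matched 4 of the 8 genes. The 250 bases upstream of the start are shown for Defb6, Il1f8 and Il1f9, because these are the genes with a promoter in the table whose levels in the 6 mice of Exp 1 did not overlap those in the 6 mice of Exp 2. Capitals mark matches to the motifs searched.
Defb6 promoter, chr8:19225228-19225477, plus strand: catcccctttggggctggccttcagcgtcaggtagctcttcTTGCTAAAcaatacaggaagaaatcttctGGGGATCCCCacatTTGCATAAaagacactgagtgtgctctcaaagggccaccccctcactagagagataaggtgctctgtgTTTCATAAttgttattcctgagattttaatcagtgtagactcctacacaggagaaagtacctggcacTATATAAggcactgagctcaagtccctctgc
Il1f8 promoter, chr2:24152922-24153171, plus strand: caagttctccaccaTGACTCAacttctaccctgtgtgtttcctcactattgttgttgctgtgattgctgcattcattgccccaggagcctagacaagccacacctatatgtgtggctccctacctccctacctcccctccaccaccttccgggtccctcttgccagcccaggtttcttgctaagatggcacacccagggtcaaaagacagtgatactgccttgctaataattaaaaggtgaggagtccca
Il1f9 promoter, chr2:24186226-24186475, plus strand: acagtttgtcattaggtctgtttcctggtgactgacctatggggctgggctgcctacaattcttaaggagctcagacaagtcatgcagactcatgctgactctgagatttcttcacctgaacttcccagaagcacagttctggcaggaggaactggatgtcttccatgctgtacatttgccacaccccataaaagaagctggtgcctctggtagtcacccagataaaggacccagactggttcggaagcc

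The 4 motifs searched were an AP-1 site (TGACTCA or its complement TGAGTCA), the NF-kB consensus, a C/EBP site (TTNCNNAA), each on both strands, and a TATA box (TATAAA or TATATAA, sense strand only). The Defb6 window held an NF-kB match, GGGGATCCCC, from 180 to 171 bases upstream, and a TATA match from 31 to 25 bases upstream. It also held C/EBP matches that start 209, 166 and 98 bases upstream. The Il1f8 window held 1 AP-1 match, 236 to 230 bases upstream, and the Il1f9 window held no match to these letters. Among 32851 promoter windows of the same length, 4.46% held the AP-1 letters, 7.25% the NF-kB consensus, 36.8% the C/EBP letters and 8.7% the TATA letters. The C/EBP letters are therefore common in any window, and each match is a description of the sequence only.

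Sox4 was checked first. Its level was 2.14 ± 0.18 (SD, n = 6) in WT and -3.40 ± 0.69 (SD, n = 6) in cKO mice, a difference of -5.54 (SE 0.12; limma, adjusted p = 3.8e-09), and the genotypes did not overlap. The probe was well above background on all 6 WT arrays but on only 4 of 6 cKO arrays, so the size of this difference rests partly on values at background. In Exp 2, where it was above background on all 6 arrays, the difference was -5.05 (SE 0.17; limma, adjusted p = 3.3e-07). The labels do not say whether this probe lies in the deleted part of the gene. Here and throughout, a level is the log2 processed signal of a probe minus the 75th percentile of its array, so that levels of different probes are not compared. The share of probes well above background was 53.9% to 62.6% per array, and no probe was saturated. The defining skin genes on a list of 12, among them the basal keratins Krt5 and Krt14, were all well above background on every array. Mouse cKO 5 stood apart in many results below, and most results that rest on it are given with and without it. Its array had the lowest share of probes above background (53.9%, with cKO 6 next at 54.7%). Its 75th percentile was also the lowest (364, against 396 to 554 in the others), so on these measures it was at the end of a range. The skin was also unequal between the experiments. Here and below, a gene of a list counts as higher or lower when it passed an adjusted p of 0.05 in limma. In Exp 1 minus Exp 2, 20.2% of all genes passed in either direction. The skeletal muscle list was lower in Exp 1 for 16 of 16 genes, with a median difference of -5.91. The macrophage list was lower for 8 of 11 genes and higher for 1.

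All 8 genes had a higher mean level in Exp 1, the older mice, than in Exp 2, with the genotypes weighted equally. The differences ran from 0.35 in Defb1 to 3.07 in Il1f6, with a median of 1.49, beside a median of 0.0084 and 51.1% positive differences over all 16181 genes. In 4 of the 8 genes, Defb6, Defb14, Il1f8 and Il1f9, every mouse of Exp 1 lay above every mouse of Exp 2. Of all genes without missing values, 5.73% were higher in Exp 1 in this way and 10.3% were separated in either direction. The choice of the genes rests on this contrast, so nothing is read from that count. In bulk skin, fewer cells of a type and less RNA per cell cannot be told apart.

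**Figure D1:**
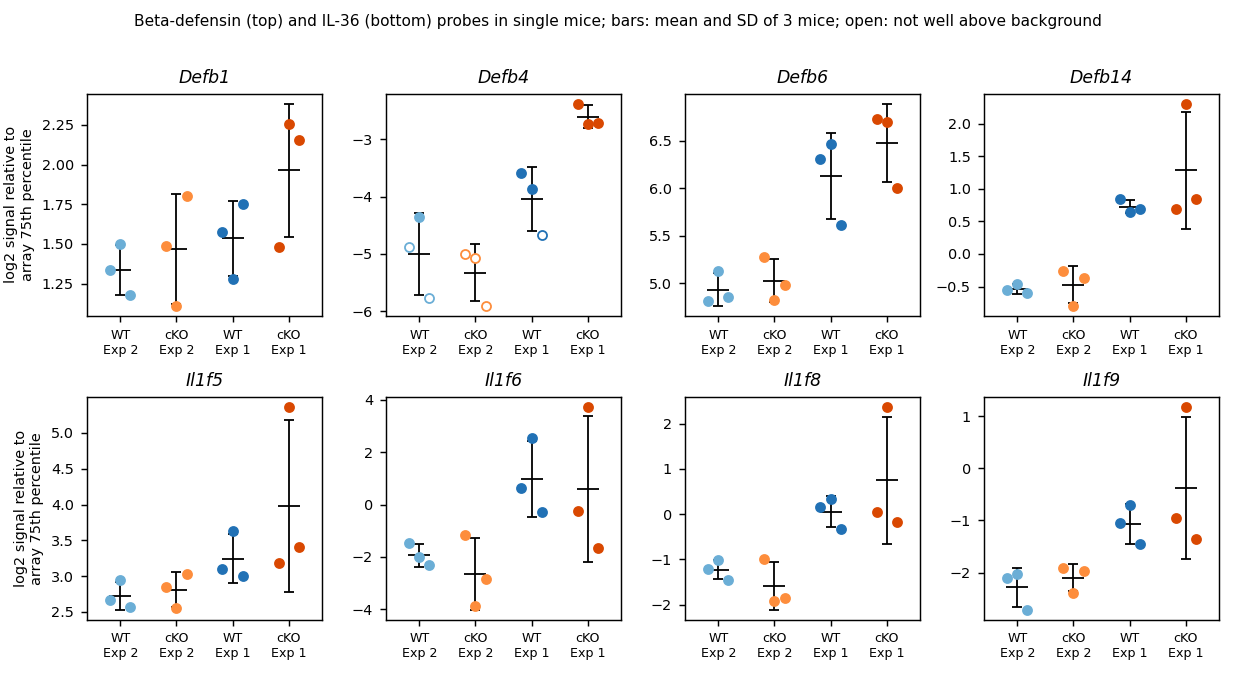
Level of each beta-defensin (top row) and IL-36 gene (bottom row) in single mice, in log2 units scaled to the array's 75th percentile, by genotype and experiment. Points are mice, bars show the mean and SD of 3 mice, and open points were not well above background. In Defb6, Defb14, Il1f8 and Il1f9 all 6 mice of Exp 1 lie above all 6 mice of Exp 2, and 1 cKO mouse of Exp 1 (cKO 5) is highest in Defb14 and in all 4 IL-36 genes.

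Among the defensins, Defb6 had levels of 6.30, 6.47 and 5.61 in WT 1, 2 and 3 and of 6.73, 6.70 and 6.00 in cKO 2, 5 and 6. In Exp 2 it had levels of 4.82, 5.13 and 4.85 in WT 4, 5 and 6 and of 5.27, 4.83 and 4.98 in cKO 1, 3 and 4. The lowest mouse of Exp 1 (WT 3) was above the highest mouse of Exp 2 (cKO 1), and the genotypes were mixed within both experiments. The mean difference was 1.32 (SE 0.18), which is 2.5-fold. It was 1.20 (SE 0.26) within WT and 1.45 (SE 0.26) within cKO, and 1.27 without cKO 5. Defb6 was higher in the experiment where the skeletal muscle genes were lower, but this order did not hold in every mouse within an experiment. In Exp 2 cKO 1 had the highest Defb6 level (5.27) and also the highest muscle mean (5.66). WT 5, with the lowest muscle mean of Exp 2 (-0.97), was next highest in Defb6 (5.13). With the muscle list as a covariate the Defb6 difference between the experiments was 1.06 (SE 0.39).

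Defb14, the mouse relative of the broadly active human beta-defensin 3, had levels of 0.84, 0.65 and 0.69 in WT 1, 2 and 3 and of 0.69, 2.31 and 0.85 in cKO 2, 5 and 6. All mice of Exp 2 were below 0, at -0.55, -0.46 and -0.60 in WT 4, 5 and 6 and at -0.26, -0.80 and -0.36 in cKO 1, 3 and 4. The 5 mice of Exp 1 other than cKO 5 lay close together, and cKO 5 was 1.46 above the next highest. The mean difference between the experiments was 1.51 (SE 0.25), a 2.85-fold difference, and 1.25 (SE 0.11) without cKO 5.

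Defb4, an inducible defensin, was a dim probe that was well above background on 6 of the 12 arrays. These were all 3 cKO mice of Exp 1, WT 1 and WT 2 of Exp 1, and WT 5 of Exp 2. The processed intensities were 95.8, 54.6 and 60.6 in cKO 2, 5 and 6 and 42.3, 27.2 and 21.4 in WT 1, 2 and 3. They were 18.2, 21.8 and 9.72 in WT 4, 5 and 6, and 17.2, 16.1 and 7.52 in cKO 1, 3 and 4, of which none was well above background. Defb4 was thus highest in the older cKO mice, and on the processed signal it was at least 5.03-fold higher there than in the younger cKO mice, each younger value being replaced by the dimmest above-background signal of its array where that was higher. That bound holds for the processed signal only: the same log2 difference was 0.97 (SE 0.16) with normexp background correction and 0.89 (SE 0.12) in the authors' deposited value table. The fitted difference between the experiments over both genotypes was 1.84 (SE 0.27). It was 0.64 with normexp and 0.58 in the authors' deposited value table (0.54 without the cKO 1 column of that table), so its size depends on how background is treated. Experiments overlapped in this gene, since WT 3 (-4.67) was below WT 5 (-4.36).

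Defb1, the constitutive defensin, differed least. Its levels were 1.57, 1.28 and 1.75 in WT 1, 2 and 3 and 1.48, 2.25 and 2.16 in cKO 2, 5 and 6. In Exp 2 they were 1.33, 1.50 and 1.18 in WT 4, 5 and 6 and 1.49, 1.11 and 1.80 in cKO 1, 3 and 4. The experiments overlapped widely, and the mean difference of 0.35 (SE 0.17) was close to the SD of the 6 mice of Exp 1 (0.39) and of Exp 2 (0.25).

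The 3 IL-36 agonists all had higher means in the older mice. Il1f8 (IL-36 beta) had levels of 0.16, 0.34 and -0.34 in WT 1, 2 and 3 and of 0.04, 2.36 and -0.16 in cKO 2, 5 and 6. In Exp 2 it had levels of -1.21, -1.01 and -1.45 in WT 4, 5 and 6 and of -0.98, -1.93 and -1.85 in cKO 1, 3 and 4. The mice of the 2 experiments did not overlap, and cKO 5 was 2.02 above the next highest mouse. The mean difference was 1.81 (SE 0.40), or 3.5-fold, and 1.40 (SE 0.20) without cKO 5.

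Il1f9 (IL-36 gamma) had levels of -1.05, -0.70 and -1.46 in WT 1, 2 and 3 and of -0.96, 1.17 and -1.36 in cKO 2, 5 and 6. Its levels in Exp 2 were -2.11, -2.03 and -2.71 in WT 4, 5 and 6 and -1.92, -2.40 and -1.97 in cKO 1, 3 and 4. Again no mouse of Exp 1 was as low as any mouse of Exp 2, and cKO 5 was 1.87 above the next highest. The mean difference was 1.46 (SE 0.38), or 2.76-fold, and 1.08 (SE 0.19) without cKO 5.

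Il1f6 (IL-36 alpha) had the widest spread. Its processed intensities in Exp 1 were 793, 2342 and 442 in WT 1, 2 and 3 and 417, 4771 and 125 in cKO 2, 5 and 6. In Exp 2 they were 192, 111 and 106 in WT 4, 5 and 6 and 245, 36.4 and 62.0 in cKO 1, 3 and 4. The high mice, cKO 5 and WT 2, belonged to different genotypes, and the low mouse of Exp 1, cKO 6, fell among the younger mice, so that the experiments overlapped. The mean difference of 3.07 carried an SE of 0.88. Without cKO 5 it was 2.29 (SE 0.62).

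Il1f5, which encodes the antagonist, had levels of 3.10, 3.63 and 3.01 in WT 1, 2 and 3 and of 3.18, 5.36 and 3.40 in cKO 2, 5 and 6. In Exp 2 the levels were 2.66, 2.94 and 2.57 in WT 4, 5 and 6 and 2.85, 2.55 and 3.03 in cKO 1, 3 and 4. The experiments touched, with cKO 4 slightly above WT 3. The mean difference was 0.84 (SE 0.33), or 1.8-fold, and it was 0.50 (SE 0.15) without cKO 5, which was 1.72 above the next highest mouse. The antagonist therefore showed a smaller difference than each of the 3 agonists in these samples, although the probes differ and the difference between these differences was not tested.

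The arrays lay on 3 slides. Slides 1 and 2 held arrays of both experiments, and slide 3 held a single array, cKO 3 of Exp 2. With slide as a block the median of the 8 differences between the experiments was 1.52. Within slide 1 (WT 2, 3 and 5, cKO 1, 2 and 6) it was 0.985, and within slide 2 (WT 1, 4 and 6, cKO 4 and 5) it was 2.04. All 8 differences were positive in each of these fits. They were also all positive with median scaling, quantile normalization, normexp background correction and the authors' deposited value table.

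**Figure D2:**
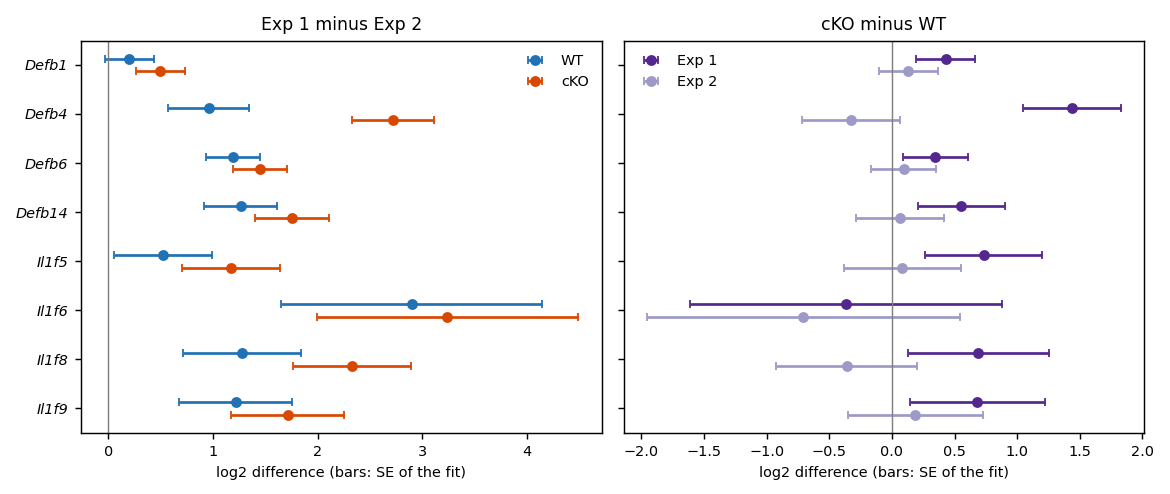
Differences of the 8 genes on the log2 scale with the SE of the fit. Left, Exp 1 minus Exp 2 in WT and in cKO mice; right, cKO minus WT in each experiment. All differences between the experiments lie above 0, from 0.20 (Defb1 in WT) to 3.24 (Il1f6 in cKO), while the differences between the genotypes lie on both sides of 0.

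The genotype comparison asks whether loss of Sox4 went with other levels of these genes. No gene of the 8 had WT and cKO mice that did not overlap, beside 1.26% of all genes. Averaged over the experiments, cKO minus WT ran from -0.54 (SE 0.88) in Il1f6 to 0.56 (SE 0.27) in Defb4, with a median of 0.29 and 7 of 8 positive, beside a median of -0.035 over all genes. The values were 0.28 (SE 0.17) in Defb1, 0.22 (SE 0.18) in Defb6, 0.31 (SE 0.25) in Defb14, 0.41 (SE 0.33) in Il1f5, 0.16 (SE 0.40) in Il1f8 and 0.43 (SE 0.38) in Il1f9. Without cKO 5 the median was 0.058, with 6 of 8 positive. Taking slide into account, the median was 0.40 in a fit with slide as a block. It was 0.055 on slide 1, with 4 of 8 positive, and 0.697 on slide 2, which holds cKO 5, with 8 of 8 positive.

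Within Exp 1 the median of cKO minus WT was 0.62, with Defb4 highest at 1.44 (SE 0.39) and Il1f6 lowest at -0.37 (SE 1.25). In Exp 1 the 3 WT and 3 cKO mice did not overlap in 1 of the 8 genes, Defb4, beside 12.9% of all genes; its levels ran from -4.67 to -3.60 in WT and from -2.74 to -2.38 in cKO. Without cKO 5 the median of the 8 genes was 0.043 with 5 positive, and Defb4 was at 1.50. With normexp background correction the Defb4 difference was 0.61, and in the authors' deposited value table it was 0.52. Within Exp 2 the median was 0.073 with 5 of 8 positive, and with median scaling it was -0.068 with 1 of 8 positive, so the direction there is set by the scaling. The signed value of cKO minus WT was higher in Exp 1 than in Exp 2 for all 8 genes, by a median of 0.49. Over all genes that median was 0.029, with 54.8% positive. In Il1f6 both values were negative, at -0.37 in Exp 1 and -0.71 in Exp 2. Without cKO 5 the value was higher in Exp 1 for 4 of 8 genes, with a median of 0.061. With slide as a block it was higher for 7 of 8, with a median of 0.26. These directions turned when the mean of the interfollicular list or of the skin list in each mouse was a covariate, in fits chosen after seeing the data. With the interfollicular list, which marks differentiating epidermis, the median of cKO minus WT in Exp 1 was -0.069 with 3 of 8 positive, and the median difference between Exp 1 and Exp 2 in this effect was -0.28 with 2 of 8 positive. With the skin list they were -0.11 with 3 of 8 positive and -0.21 with 1 of 8 positive. Defb4 kept a positive difference in Exp 1, at 1.32 (SE 0.48) and 1.40. Averaged over the experiments, the median of cKO minus WT was 0.11 with the first list and 0.091 with the second, each with 6 of 8 positive.

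Mouse cKO 5 was above the 5 other mice of Exp 1 in 6 of the 8 genes, all except Defb4 and Defb6. The margin over the next highest mouse was 2.02 in Il1f8, 1.87 in Il1f9, 1.72 in Il1f5, 1.46 in Defb14, 1.15 in Il1f6 and 0.10 in Defb1. The same mouse had the highest mean of the skin list (6.34, against 5.37 to 5.91 in the others), of the interfollicular differentiation list (6.35, against 4.59 to 5.38) and of the stress keratinocyte list (4.00, against 2.69 to 3.45). It also had the highest mean of the neutrophil list (-0.25) and of the T cell list (0.67). The part of these lists in the levels of cKO 5 was not tested.

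**Figure D3:**
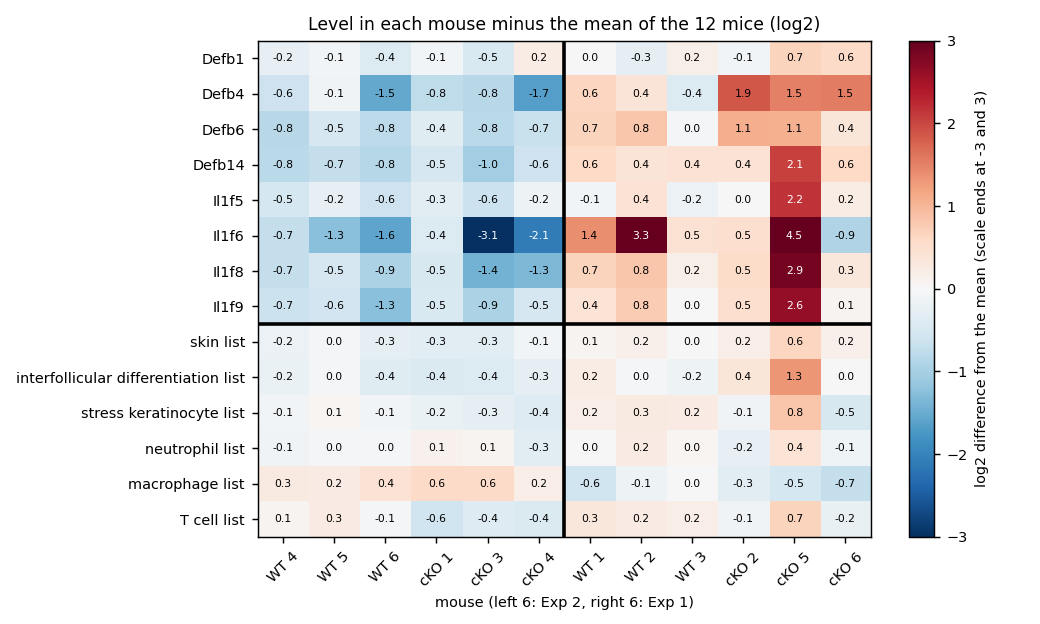
Level of the 8 genes (top) and mean level of 6 marker lists (bottom) in each mouse, as the log2 difference from the mean of the 12 mice; colours end at -3 and 3, and numbers give the value. The 6 mice of Exp 2 are on the left and the 6 of Exp 1 on the right. The column of cKO 5 has the highest values for Il1f8, Il1f9, Il1f5, Il1f6 and Defb14 and for the skin, interfollicular, stress keratinocyte, neutrophil and T cell lists.

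Some genes of the skin and keratinocyte lists also differed between the experiments, beside 20.2% of all genes that passed in either direction. Of 12 skin genes, 7 were higher and 1 lower in Exp 1 (median 0.41), with Krt14 at 0.80 (SE 0.19) and Krt5 at 0.51 (SE 0.14). The skin list also holds the collagen genes Col1a1 and Col3a1, and Col3a1 was the lower gene, at -0.42 (SE 0.12). The mean of this list ran from 5.69 to 6.34 in Exp 1 and from 5.37 to 5.66 in Exp 2, without overlap. Of 15 interfollicular genes, 5 were higher and 1 lower (median 0.65), with Krt1 at 1.66 (SE 0.44) and Krt10 at 0.91 (SE 0.22). Of 15 stress keratinocyte genes, 4 were higher and 2 lower (median -0.0092). Sprr2d (3.07), Krt6b (1.04) and Krt6a (0.72) were higher, and Tgm3 (-1.29) and Sprr2f (-1.33) were lower.

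With the mean of the interfollicular list as a covariate, a fit chosen after seeing the data, the median difference of the 8 genes between the experiments was 0.84. Defb4 (1.72) and Defb6 (1.05) kept most of their difference, and Defb14 was at 0.89. The 3 agonists were at 1.09 (SE 0.82) in Il1f6, 0.79 (SE 0.29) in Il1f8 and 0.43 (SE 0.22) in Il1f9, against 3.07, 1.81 and 1.46 without the covariate, and Il1f5 was at 0.019. Within cKO the same fit gave -0.19 (SE 0.39) in Il1f5, -0.024 (SE 1.25) in Il1f6 and 0.0053 (SE 0.33) in Il1f9. With the skin list as a covariate, also chosen after seeing the data, the median was 0.18 with 4 of 8 positive. Defb4 (1.79, SE 0.52), Defb6 (0.93, SE 0.31) and Defb14 (0.58, SE 0.29) remained the highest, Il1f8 was at 0.36 (SE 0.50), and Il1f6 (-0.0042), Defb1 (-0.022), Il1f9 (-0.17) and Il1f5 (-0.57) were at or below 0. Because the skin list itself separated the experiments, that covariate and the experiment are hard to separate in 12 mice. With the skeletal muscle list as a covariate the median was 1.31, and all 8 were positive. This list also differed strongly between the experiments, so it too is hard to separate from them. The SE was larger in every gene, at 1.92 in Il1f6 and 0.53 in Defb14, against 0.88 and 0.25 without the covariate. Within WT the 8 differences ran from 0.094 (Defb4) to 3.81 (Il1f6). In this fit 0 of all 16181 genes passed between the experiments. WT 5, whose muscle mean was -0.97 against 4.41 to 5.66 in the other mice of Exp 2, had the highest level of the 3 WT mice of Exp 2 in 7 of the 8 genes, all except Il1f6. This mouse was singled out after its values were seen. In Defb1 and Defb4 it lay above 1 WT mouse of Exp 1 each, at 1.50 against 1.28 in WT 2 and at -4.36 against -4.67 in WT 3. Of the 3 WT mice of Exp 2, WT 5 also had the highest skin list mean (5.66) and interfollicular list mean (4.99). Its array lay on slide 1, those of WT 4 and WT 6 on slide 2. Its 75th percentile was lower, at 449 against 533 in WT 4 and in WT 6. In unscaled intensity WT 5 was highest of these mice only in Defb4, Defb6 and Il1f5, and lowest in Defb14. What set this order was not tested.

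Immune marker lists gave no single direction. Of 11 neutrophil genes, 3 were higher and 1 lower in Exp 1 (median 0.16), and the list mean ran from -0.90 to -0.25 in Exp 1 and from -0.99 to -0.53 in Exp 2. The granulocyte receptor gene Csf3r was higher by 0.67 (SE 0.13; limma, adjusted p = 0.0084) and the integrin gene Itgam by 0.56 (SE 0.15; limma, adjusted p = 0.028), and S100a9 is given below with the antimicrobial genes. Of 2 other kept Itgam probes, only 1 had the same sign. Itgam is also on the macrophage list, where it was the 1 higher gene. Retnlg was the lower gene, well above background on 0 of 6 arrays of Exp 1 and 4 of 6 of Exp 2. The granule peroxidase gene Mpo, above background on 2 and 6 arrays, did not pass, at -1.11 (SE 0.49; limma, adjusted p = 0.14). Of 9 T cell genes, 4 were higher (median 0.26), among them Cd3g at 1.15 (SE 0.22). The list means ran from -0.22 to 0.67 in Exp 1 and from -0.59 to 0.25 in Exp 2. Their part in the levels of the 8 genes was not tested.

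Over the 12 mice the IL-36 genes followed one another. The median Pearson correlation of the 6 pairs was 0.918, and 0.867 without cKO 5. Because the mice fall into 2 clusters by experiment, the values within an experiment were taken too: the median was 0.91 among the 6 mice of Exp 1 and 0.39 among the 6 of Exp 2. The 6 pairs of beta-defensins had medians of 0.76 over all mice (0.665 without cKO 5), 0.39 in Exp 1 and 0.43 in Exp 2. The 16 pairs of 1 defensin and 1 IL-36 gene had medians of 0.763 (0.78 without cKO 5), 0.545 and 0.618. The values within Exp 1 include cKO 5, which was far above the others in the IL-36 genes, and were not taken without it. These are descriptions of 12 arrays that share their scaling.

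For 7 genes, all except Defb4, the genes with the most similar pattern over the 12 mice were named by the highest Pearson correlation. Il1f9 was most like Aadac (0.992), Il1f8 most like Hacd2 (0.986), Il1f5 most like Spata7 (0.977) and Il1f6 most like Mgll (0.971). Defb14 was most like C77080 and Acsl4 (both 0.985), Defb6 most like Crebbp (0.974) and Defb1 most like Apol7a (0.915). Within the 6 mice of Exp 2, which do not include cKO 5, the correlation was 0.925 for Il1f9 with Aadac, 0.921 for Defb14 with Acsl4, 0.955 for Defb1 with Apol7a, and 0.491 for Defb6 with Crebbp.

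The other genes of the pathway were tested, since the choice of the 8 genes did not use them. Their lists and the comparisons were still chosen with earlier results of these data known, so the adjusted p-values are not free of that choice. They were the remaining interleukin-1 family, IL-36 signalling and processing, other skin antimicrobial proteins, inducers of defensins and IL-36, keratinocyte outputs and the other beta-defensins, with 140 genes listed and 95 kept. In Exp 1 minus Exp 2, 23 of 95 (24.2%) passed an adjusted p of 0.05 in limma, 15 higher and 8 lower, beside 20.2% of all genes, so the share was near the background. With median scaling 17 passed, 8 of them higher, and the split between higher and lower depends on the scaling to that extent. Within slide 1 and within slide 2 none passed, with 13 and 30 genes at an unadjusted p under 0.05. With the skeletal muscle list or the skin list as a covariate none passed, with 14 and 19 genes at an unadjusted p under 0.05. Whichever 1 mouse was left out, 12 of the 23 calls held, 7 higher and 5 lower.

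**Figure D4:**
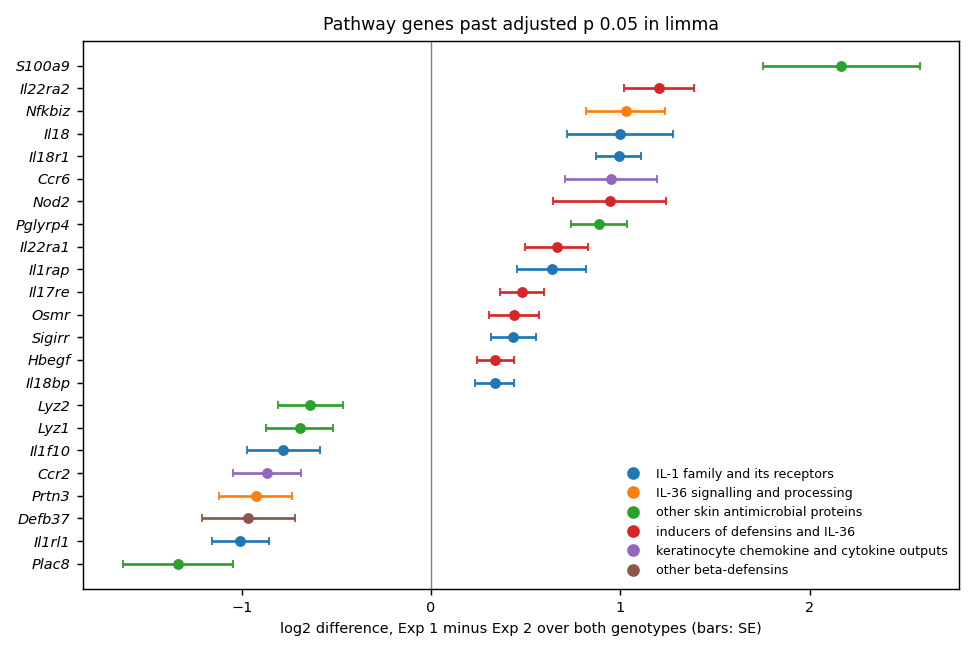
Pathway genes past an adjusted p of 0.05 (limma) in Exp 1 minus Exp 2 over both genotypes, as the log2 difference with its SE, coloured by list. The 15 genes on the right of 0 are led by S100a9 (2.17) and Il22ra2 (1.21), and the 8 on the left by Plac8 (-1.34) and Il1rl1 (-1.01). Among those on the left, Defb37 and Prtn3 were well above background on 0 and 2 of the 6 arrays of Exp 1.

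In the interleukin-1 family 5 of 14 genes were higher and 2 lower in the older mice (median 0.40). The interleukin-18 receptor Il18r1 rose by 0.99 (SE 0.12; limma, adjusted p = 0.0019), and it passed in each genotype, at 0.89 in WT and 1.09 in cKO. The IL-36 partner chain Il1rap was at 0.64 (SE 0.18; limma, adjusted p = 0.034), a call lost when any of 8 mice was left out. Il18 (1.00), Sigirr (0.44) and Il18bp (0.34) passed, but their calls were lost when any of 7, 8 and 10 mice was left out. The receptor Il1rl2, chosen for mention after its value was seen, was at 0.35 (SE 0.13; limma, adjusted p = 0.079) and did not pass. Lower were Il1rl1, the receptor of interleukin-33, at -1.01 (SE 0.15; limma, adjusted p = 0.0033), and Il1f10, at -0.78 (SE 0.19; limma, adjusted p = 0.018). Il1f10 is the gene next to Il1f5 on chromosome 2, where 4 consecutive genes had higher means in Exp 1 and Il1f10 a lower one. Beyond it Il1rn, the interleukin-1 receptor antagonist, was at 0.46 (SE 0.15; limma, adjusted p = 0.051), and Psd4 at 0.45 (SE 0.089; limma, adjusted p = 0.0080).

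Of 21 genes of IL-36 signalling and processing, 1 was higher and 1 lower (median 0.13). Nfkbiz, the NF-kB cofactor IkB-zeta that acts downstream of IL-36, was higher by 1.03 (SE 0.21; limma, adjusted p = 0.0091). Prtn3, a neutrophil protease able to process IL-36 cytokines, was lower, at -0.93 (SE 0.19; limma, adjusted p = 0.010). It was well above background on 2 of 6 arrays of Exp 1 and on 6 of 6 of Exp 2, so it was kept through the group where it is high and its level in Exp 1 is mostly at background. Card14, a keratinocyte activator of NF-kB, was at 0.64 (SE 0.21; limma, adjusted p = 0.054). The adaptor Myd88, named after its value was seen, was at 0.061 (SE 0.12).

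Of 18 other antimicrobial genes, 2 were higher and 3 lower (median 0.073). S100a9, a subunit of calprotectin, was higher by 2.17 (SE 0.41; limma, adjusted p = 0.0072), while its partner S100a8 was at 0.16 (SE 0.13; limma, adjusted p = 0.42). Pglyrp4, a peptidoglycan recognition protein, was higher by 0.89 (SE 0.15; limma, adjusted p = 0.0045). Plac8 was at -1.34 (SE 0.29; limma, adjusted p = 0.011). Lyz1 (-0.69) and Lyz2 (-0.64), the lysozyme genes of Paneth cells and of macrophages and neutrophils, were also lower. Their probes could read each other, the Lyz1 call was lost without cKO 3, and the Lyz2 call was lost when any of 8 mice was left out. Lyz2 is also on the macrophage list, which was lower in Exp 1.

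Of 24 inducers and their receptors, 6 passed as higher and none as lower (median 0.11, with 15 of 24 differences positive). Il22ra2, the soluble decoy receptor of interleukin-22, was higher by 1.21 (SE 0.18; limma, adjusted p = 0.0035) with no overlap between the experiments. Il22ra1, the signalling receptor of interleukin-22, was at 0.66 (SE 0.17; limma, adjusted p = 0.020), but a second kept probe of this gene had the opposite sign. Il17re, the receptor of interleukin-17C, was at 0.48 (SE 0.12; limma, adjusted p = 0.017). Osmr (0.44), Nod2 (0.94) and Hbegf (0.34) passed, but their calls were lost when any of 8, 10 and 7 mice was left out. Of 6 keratinocyte outputs and chemokine receptors kept, Ccr6, the receptor that beta-defensins can engage, was higher by 0.95 (SE 0.24; limma, adjusted p = 0.021), a call lost without cKO 3. Ccr2, a monocyte receptor, was lower, at -0.87 (SE 0.18; limma, adjusted p = 0.0098).

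Few other beta-defensins were detected in these skins. Of 39 on the array, 12 were kept, with a median difference of -0.46 and 3 positive. Some were kept only or mainly through Exp 2. Defb25 was well above background on 0 of 6 arrays of Exp 1 and 5 of 6 of Exp 2, and Defb42 on 1 and 6. Defb2 (3 and 3) and Defb45 (6 and 5) were not of this kind. The median therefore rests partly on values at background, and no direction is read from it. Defb37 was the 1 that passed, lower in Exp 1 (limma, adjusted p = 0.021). It was well above background on 0 of 6 arrays of Exp 1 and 3 of 6 of Exp 2, so it was kept through Exp 2 alone, and no size is given against a group that was not above background. Its call was lost without cKO 4, with slide as a block and with normexp background correction. Defb2 (0.73, SE 0.25; limma, adjusted p = 0.066) and Defb45 (0.76, SE 0.25; limma, adjusted p = 0.054) had positive differences that did not pass. Another kept probe of Defb45 had the opposite sign.

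In cKO minus WT, none of the 95 pathway genes passed in limma, averaged over the experiments, in Exp 1, in Exp 2 or in the interaction. The numbers at an unadjusted p under 0.05 were 10, 18, 7 and 8. The shares of all genes that passed were 0.42%, 0.117%, 0.0618% and 0.00618%. The smallest adjusted p in the average belonged to S100a8, at -0.59 (SE 0.13; limma, adjusted p = 0.11). It passed without cKO 5, at -0.70 (SE 0.097; limma, adjusted p = 0.015), and with normexp background correction, at -0.56 (SE 0.11; limma, adjusted p = 0.047). Il18r1 was at 0.49 (SE 0.12; limma, adjusted p = 0.13) and Il1rap at 0.56 (SE 0.18; limma, adjusted p = 0.27). Another kept probe of Il1rap had the opposite sign in this comparison. Il1rl2 was at 0.21 (SE 0.13; limma, adjusted p = 0.53).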

How the data were processed

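Gene expression was measured in skin of 12 mice, 1 array per mouse, so replicates are mice; their number limits the precision. Per the file headers, the scanner files hold background-subtracted processed intensity values of Feature Extraction 11.5.1.1, not scaled between arrays, raw median spot and background intensities, and 0 or 1 flags (other values, per the file headers) for background, saturation and outliers. The authors' deposited value table is on a log2 scale; the submitters' processing notes name limma, and its background correction and scaling are not given in these sources. It served as an alternative only, since its column for cKO 1 correlated best with the array of cKO 5, a mouse of the other experiment. Its columns for WT 6 and cKO 2 correlated best with the arrays of cKO 4 and cKO 6, each of the same experiment.

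Outlier spots were left out, log2 processed signals were averaged per probe, and each array was scaled to its 75th percentile. Of 55681 probes, 27509 were named through RefSeq transcript accessions (GRCm38). A gene was kept when its brightest probe passed the background flag on 3 or more of 12 arrays (16181 genes). Group means were fitted with limma 3.58.1 in R 4.3.3 (8 residual and 2.3 prior degrees of freedom), with two-sided tests and Benjamini-Hochberg adjustment over all genes at 0.05. The fit was tested on simulated data. A bound ("at least") replaces dim values by the dimmest above-background signal of that array, where higher, and compares means of 3 mice.

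The 8 genes, the gene lists and the comparisons were chosen with earlier results of these data known. Named were the 8 genes, up to 4 genes of a list by smallest p in either main comparison, all pathway genes past the threshold, the 3 genes most like each of the 8, and Sox4. Normexp (offset 50) used the raw median spot signal, because the scanner files used here hold no mean signal. Alternatives were other scaling, background correction, filters and probe rules, slide, an array-name tag, the mouse number, marker-list covariates, the authors' table, and leaving out each mouse.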

Additional observations from a re-analysis of the deposited data

Results flagged for a closer look

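Mouse cKO 5 stood far above the other 5 mice of Exp 1 in 4 of the 8 genes: its gap to the next mouse, divided by the range of the 6 mice, was 0.878 in Defb14, 0.75 in Il1f8, 0.734 in Il1f5 and 0.711 in Il1f9, against a limit of 0.625 for 6 samples (Dixon). In all, 16 groups of 6 mice were examined. The limit served only to mark values for a closer look. No chance rate is attached to it, because the 8 genes were chosen with their values known. The 4 results come from 1 mouse and are not independent of one another. The levels with and without this mouse are given above.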

How the results depend on the processing

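The 8 differences between Exp 1 and Exp 2 kept their sign under all alternatives tried, except with the skin list as a covariate, where Defb1, Il1f5, Il1f6 and Il1f9 were below 0. The pathway count of 23 in that comparison became 12 with slide as a block, 8 in the authors' table (24 without its cKO 1 column) and 6 with the interfollicular covariate. It was 0 within slide 1, within slide 2, with the skeletal muscle covariate and with the skin list covariate, with 13, 30, 14 and 19 genes at an unadjusted p under 0.05 in limma. Fewer arrays or residual degrees of freedom enter the fits within slides and with covariates. Leaving out 1 mouse gave 13 (without cKO 3) to 33 (without cKO 6), and 15 without WT 1 or WT 4. Il18 reversed to -0.069 with the skin list covariate; the cause was not tested. For cKO minus WT, averaged or in Exp 1, the count of 0 became 1 without cKO 5 (range 0 to 1), and averaged also 1 with normexp: S100a8 each time, at -0.99 (limma, adjusted p = 0.044) in Exp 1 without cKO 5.

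Mouse numbers are shared between genotypes only as numbers: deviations of same-numbered mice correlated from -0.26 to 0.072. With the mouse number as a replicate block 0 pathway genes passed in Exp 1 minus Exp 2 (32 at an unadjusted p under 0.05), and 0 in cKO minus WT.

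Signal over background limits the dim probes: when genes had to be above background on all 12 arrays, 74 of the 95 pathway genes gave a value, and Defb4, Defb37 and Prtn3 gave none. No fit was possible within slide 3, which holds 1 array.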
